A study of Danio rerio with 14 samples.

Results

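The myogenic regulators *myod1*, *myog* and *myf5* were followed through RNA-Seq of cells sorted from the heads of zebrafish larvae. They were taken by their Ensembl identifiers, ENSDARG00000030110 for *myod1*, ENSDARG00000009438 for *myog* and ENSDARG00000007277 for *myf5*, and are 3 of the 32520 genes counted in every library. All 3 encode basic helix-loop-helix (bHLH) transcription factors that bind DNA in pairs with E proteins. Myf5 and Myod1 commit precursors to the muscle fate and act together in forming the head muscles of the zebrafish, whereas Myog acts later, when committed cells differentiate and fuse into fibres. Id proteins oppose them by binding the E proteins, and Mef2 factors act with them on the genes of the contractile apparatus.

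All samples came from larvae at 72 hours postfertilization (hpf), with 20 to 25 dissected heads per sample. Mutants were homozygous for *psmb1* hi2939 (*psmb1*-/-), a retroviral insertion in the first intron of a gene for a proteasome subunit, from which the full-length transcript is still made. The paper found less of that transcript in mutants by qRT-PCR, which did not use sorted cells. It also found proteasome assembly impaired in mutants by native PAGE. Controls pooled wild-type and heterozygous larvae (*psmb1*+/+ and +/-, abbreviated WH in the plots), so heterozygotes in the controls carried the insertion too. Cranial *sox10*+ cells, meant to hold neural crest cells and chondrocytes, were sorted by *Tg(sox10:kaede)zf393*, which also labels cells outside the cranial neural crest, such as those of the ear, with 7000 cells per sample. Cranial *mylz2*+ cells, the muscle cells, were sorted by *Tg(mylz2:mCherry)*, driven by the promoter of a fast-muscle myosin light chain gene, with 1500 cells per sample. Each cell type had 4 wild-type/heterozygous and 3 mutant samples. One mutant *mylz2*+ sample carries the number 3 in its title and 2 in its description, and is called replicate 3 here. The labels call the samples biological replicates and do not say whether they came from separate clutches, so p-values measure the spread between these samples.

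The 14 libraries held 54824619 to 103563447 counts, and 3 counts, taken as the smallest level that could be told from none, were worth 0.029 to 0.0547 counts per 1000000 counts of the library (CPM). The *mylz2*+ label matched its markers, since 12 skeletal muscle genes took 15.3 to 16.3% of the counts of the wild-type/heterozygous *mylz2*+ libraries. The 12 genes include myosin light chain genes, the class whose promoter drives the reporter, so the match is not independent of the sort. The same genes took 9.55 to 12.1% in the mutant *mylz2*+ libraries, 0.0328 to 0.135% in wild-type/heterozygous *sox10*+ libraries and 0.00569 to 0.0715% in mutant *sox10*+ libraries. Conversely, 7 cartilage and neural crest genes, among them *sox10* itself, took 8.63 to 12.2% of the counts of wild-type/heterozygous *sox10*+ libraries. They took 5.45 to 7.56% in mutant *sox10*+ libraries and at most 0.0646% in any *mylz2*+ library. The targeted gene, *psmb1*, was counted in every library. It averaged 79.9 ± 15.5 CPM (SD, n = 4) in wild-type/heterozygous and 82.4 ± 11.6 CPM (n = 3) in mutant *sox10*+ cells, so its level did not separate the genotypes there. In *mylz2*+ cells it averaged 142 ± 17.2 CPM (n = 4) against 78.9 ± 9.39 CPM (n = 3) in mutants, a log2 fold change of -0.85 (adjusted p = 0.00161 in the quasi-likelihood test of edgeR). With library totals alone as the scale, that fold change was -0.45 (adjusted p = 0.0159 by edgeR).

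In *mylz2*+ cells, *myod1* and *myog* were both lower in *psmb1* mutants, and *myf5* had at most 46 counts in any library. After TMM scaling, which corrects the library totals for shifts in composition, *myod1* averaged 404 ± 74.8 CPM (SD, n = 4) in wild-type/heterozygous and 208 ± 18.1 CPM (n = 3) in mutant cells, and *myog* 126 ± 21.2 against 59.4 ± 15.0 CPM. The level of *myf5* was 0.479 ± 0.225 against 0.323 ± 0.0156 CPM. Of the 3 members, 2 passed the threshold, an adjusted p under 0.05 (edgeR's quasi-likelihood test, p-values adjusted by Benjamini and Hochberg over all genes), in a comparison in which 22.3% of 20413 genes did.

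*myod1*, which commits cells to the muscle fate and stays active in differentiating fibres, had 22990, 27664, 26081 and 29117 counts in wild-type/heterozygous replicates 1 to 4, or 318, 495, 380 and 425 CPM. Mutant replicates 1, 3 and 4 had 23111, 25969 and 17523 counts, or 229, 197 and 199 CPM. Every mutant library was below every wild-type/heterozygous library in CPM, although the raw counts overlapped, the mutant libraries having larger totals. The share of all genes tested with such a separation was not counted. The log2 fold change was -0.96 (SE 0.16, adjusted p = 0.0017 by edgeR), a level 1.94-fold lower in mutants. Its biological coefficient of variation between replicates was 0.156, against a trend of 0.159 for genes of its abundance.

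*myog*, which drives terminal differentiation, had 7795, 8685, 7822 and 8667 counts in wild-type/heterozygous replicates 1 to 4, or 108, 156, 114 and 126 CPM. The mutant libraries had 7633, 7456 and 4057 counts, or 75.6, 56.5 and 46.0 CPM. Again the groups did not overlap in CPM, and replicate 4 was the lowest mutant library. How many of all genes tested also separated in this way was not counted. The log2 fold change was -1.08 (SE 0.19, adjusted p = 0.00254 by edgeR), a level 2.12-fold lower in mutants. Among all genes tested in these cells, 14.6% had a log2 fold change below that of *myod1* and 11.9% below that of *myog*, so neither was among the extremes.

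*myf5*, which marks muscle precursors, had 32, 35, 12 and 46 counts in wild-type/heterozygous replicates 1 to 4, or 0.442, 0.627, 0.175 and 0.671 CPM. In mutants it had 34, 43 and 27 counts, or 0.337, 0.326 and 0.306 CPM. The 3 mutant values lay within the range of the wild-type/heterozygous values, so the groups overlapped. For wild-type/heterozygous replicates 3 and 4 the exact 95% Poisson intervals, 6.20 to 21.0 and 33.7 to 61.4 counts, did not overlap. Such intervals take every count as independent, which amplified cDNA without molecular identifiers does not ensure. The log2 fold change was -0.57 with a standard error of 0.83 and an adjusted p of 0.713 by edgeR, so a difference was not detectable at this depth. Pooled over libraries, 104 counts among 271792930 in mutants stood against 125 among 297682340, a ratio of 0.911 with a 95% interval of 0.696 to 1.19 that covers counting error only.

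**Figure D1:**
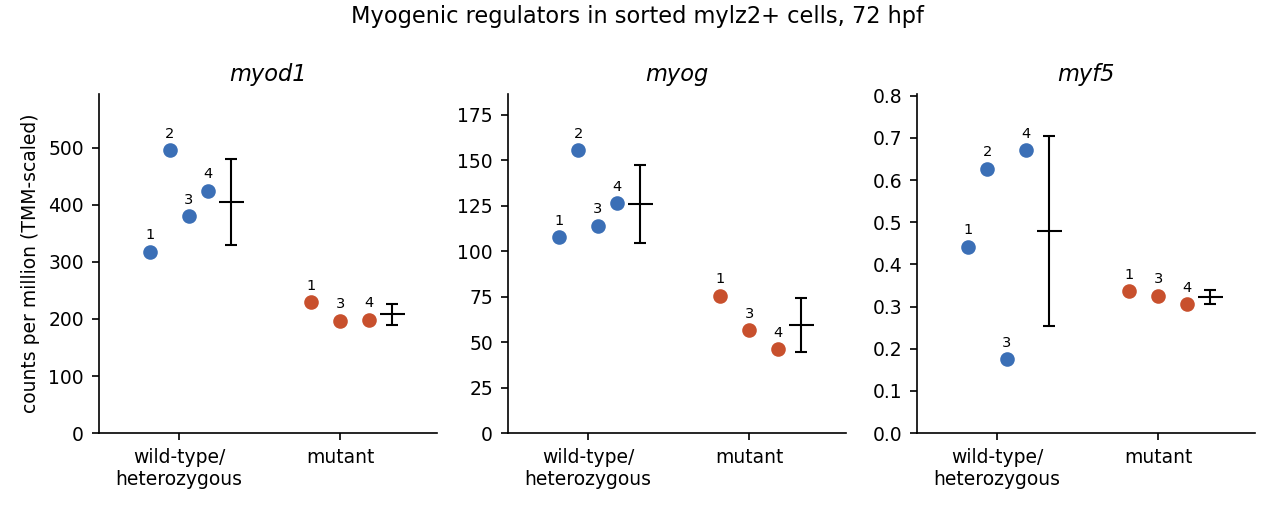
Level of each member in the 7 *mylz2*+ libraries, in TMM-scaled counts per 1000000 counts (CPM) on a linear axis from 0. Points are libraries, numbered by replicate, and black bars are the mean and SD; all 3 mutant points for *myod1* (197 to 229) and *myog* (46.0 to 75.6) lie below all 4 wild-type/heterozygous points, and the mutant *myf5* points lie within the wild-type/heterozygous range. The share of all genes that separate in this way was not counted.

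The size of these falls depended on the scaling. On library totals with no factors, all genes tested in *mylz2*+ cells had a median log2 fold change of 0.413, against 0.00999 after TMM scaling. On that scale *myod1* had a log2 fold change of -0.55 (adjusted p = 0.0153 by edgeR) and *myog* of -0.66 (adjusted p = 0.0308), and their mean levels were 31.5% and 36.7% lower in mutants rather than 48.5% and 52.9%. Of the genes called, 79.5% were higher in mutants on library totals, against 48.1% after TMM scaling. The mutant *mylz2*+ libraries had TMM factors above 1 and the wild-type/heterozygous libraries below 1. In bulk samples, fewer cells of a type and less RNA per cell cannot be told apart. When all 14 libraries shared 1 fit, the log2 fold changes were -0.97 for *myod1* and -1.10 for *myog*, and neither passed (adjusted p = 0.671 and 0.365 by edgeR), the coefficient of variation of *myod1* being 1.2 in that fit, which included the *sox10*+ libraries.

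The ratio of *myog* to *myod1* within a library does not depend on scaling. In wild-type/heterozygous *mylz2*+ libraries there were 2.95, 3.19, 3.33 and 3.36 *myod1* counts for each *myog* count, and in mutants 3.03, 3.48 and 4.32. The groups overlapped, with mutant replicate 4 the most uneven. The log2 ratio of *myog* to *myod1* was -1.68 ± 0.086 (SD, n = 4) against -1.84 ± 0.258 (n = 3), a difference of -0.16 (p = 0.3429, exact two-sided permutation test, adjusted p = 0.5143 over 6 ratios). The ratio of *myf5* to *myod1* differed by 0.54 on the log2 scale (exact permutation p = 0.3143) and that of *myog* to *myf5* by -0.70 (exact permutation p = 0.1429). The smallest p that 4 libraries against 3 can give is 0.0286.

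The members were next set against the summed counts of the 12 skeletal muscle genes, a measure chosen after the data were seen. These genes took 15.3 to 16.3% of counts in wild-type/heterozygous and 9.55 to 12.1% in mutant *mylz2*+ libraries. The scaling thus divides a fall by a fall. Scaled to counts per 1000000 counts of the 12 skeletal muscle genes, *myod1* had 1901, 2444, 2232 and 2512 counts in wild-type/heterozygous *mylz2*+ libraries and 2385, 2625 and 1721 in mutants. The groups overlapped, with means of 2272 ± 275 (SD, n = 4) and 2244 ± 468 (n = 3) and an exact permutation p of 0.9143. For *myog* the values were 645, 767, 670 and 748 against 788, 754 and 398, with means of 707 ± 59.4 and 647 ± 216 (exact permutation p = 0.8286). Mutant replicates 1 and 3 lay above most wild-type/heterozygous values and replicate 4 below all of them. For *myf5* the means were 2.68 ± 1.23 and 3.50 ± 0.847 (exact permutation p = 0.4286). The *myod1* and *myog* falls therefore accompanied a fall in the summed share of the muscle genes, which contain contractile genes described further on, and the part of that share in either fall was not tested.

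**Figure D2:**
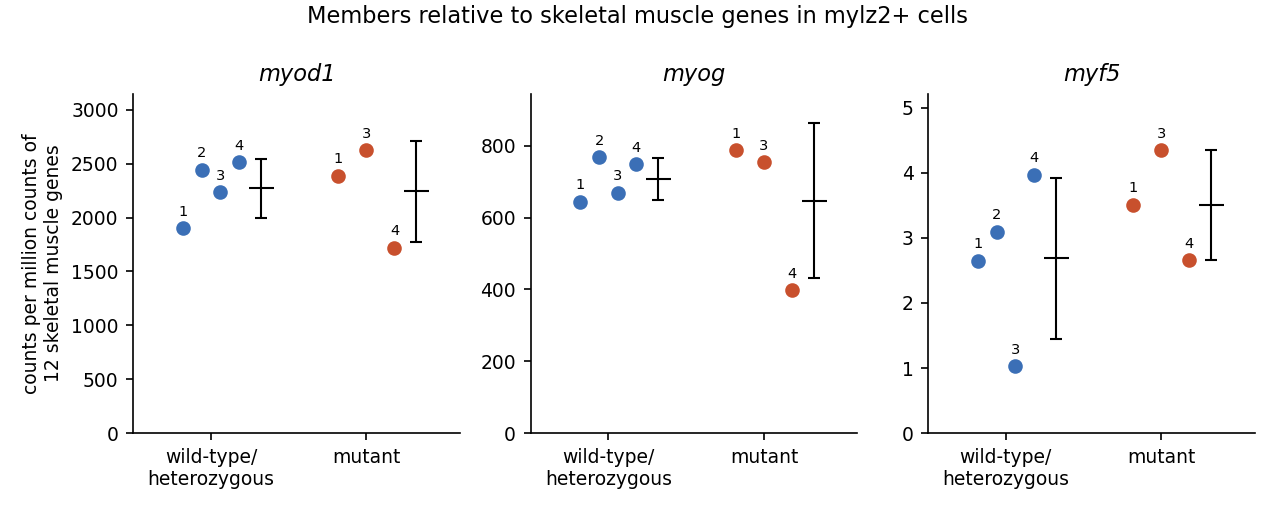
Level of each member in counts per 1000000 summed counts of 12 skeletal muscle genes in the 7 *mylz2*+ libraries, on linear axes from 0. Points are libraries, numbered by replicate, and bars are the mean and SD; genotypes overlap for all 3 members, with means of 2272 and 2244 for *myod1*, and mutant replicate 4 is the lowest point for *myog*, at 398.

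In *sox10*+ cells the members were detected at low and scattered counts. *myod1* had 257, 148, 0 and 0 counts in wild-type/heterozygous replicates 1 to 4 and 19, 125 and 6 counts in mutant replicates 1, 3 and 4. The libraries with no count allow at most 0.0518 CPM in replicate 3 and 0.0516 CPM in replicate 4, the worth of 3 counts. The means were 1.86 ± 2.42 CPM (SD, n = 4) and 0.730 ± 0.944 CPM (n = 3), and the groups overlapped.

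*myog* had 124, 31, 94 and 1 counts in wild-type/heterozygous *sox10*+ libraries and 12, 0 and 4 counts in mutants. Wild-type/heterozygous replicates 1 to 3 were above all mutant libraries, and replicate 4, with 1 count, lay within the mutant range. The means were 1.15 ± 1.1 CPM (n = 4) and 0.0804 ± 0.0956 CPM (n = 3). *myf5* was present in wild-type/heterozygous replicate 4 with 168 counts and in mutant replicate 3 with 1 count, and had 0 counts in the other 5 *sox10*+ libraries. It did not pass the filter on low counts and was not tested between genotypes in *sox10*+ cells.

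Neither of the 2 tested members passed between genotypes in *sox10*+ cells, where 3.71% of 21476 genes did. By DESeq2 neither passed either (adjusted p = 0.807 and 0.137), and the unadjusted p from edgeR was 0.532 for *myod1* and 0.0775 for *myog*. The log2 fold change was -1.35 (SE 2.08, adjusted p = 0.852 by edgeR) for *myod1* and -3.80 (SE 1.93, adjusted p = 0.38) for *myog*. With all 14 libraries in 1 fit, *myog* in *sox10*+ cells passed the threshold at -3.81 (adjusted p = 0.0431 by edgeR). The biological coefficient of variation was 1.78 for *myod1* and 1.45 for *myog*, against 0.156 and 0.184 in the *mylz2*+ libraries, so a change of the size seen in *mylz2*+ cells was not detectable here.

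**Figure D3:**
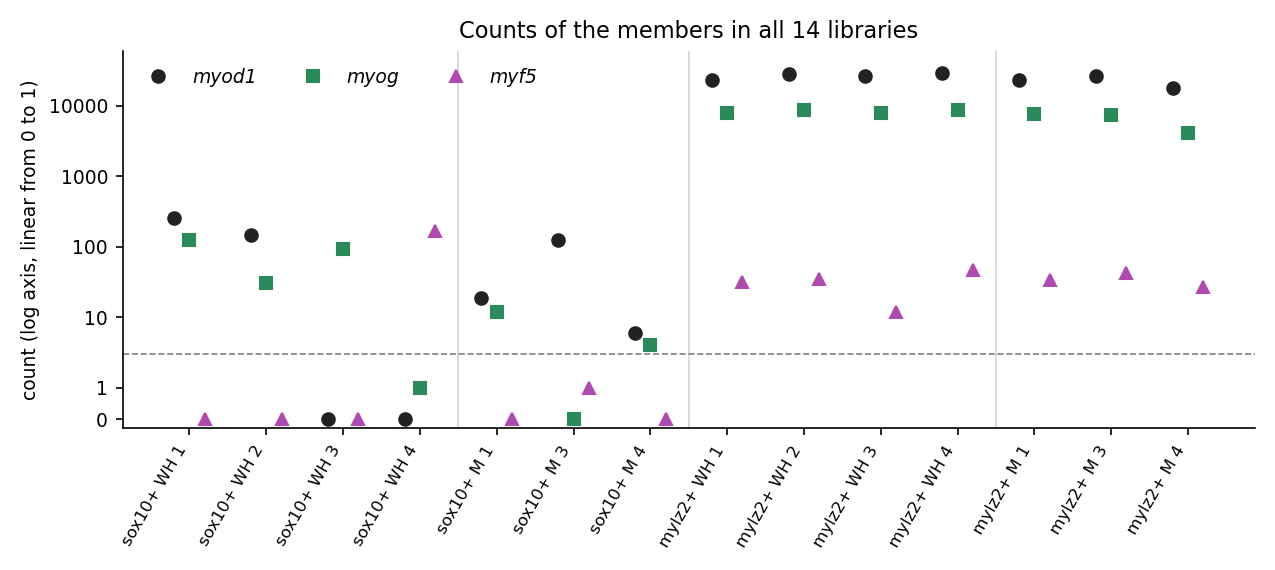
Raw counts of the 3 members in the 14 libraries, on a log axis that is linear from 0 to 1, with a dashed line at 3 counts. Each mark is 1 library, WH stands for wild-type/heterozygous and M for mutant; *myod1* and *myog* are at 4057 or more in every *mylz2*+ library and between 0 and 257 in the *sox10*+ libraries, and *myf5* has its highest count, 168, in a *sox10*+ library.

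The scattered *sox10*+ counts were set beside the skeletal muscle genes of the same libraries. At the *mylz2*+ ratio of member to muscle genes, the muscle counts of wild-type/heterozygous *sox10*+ replicates 1 to 4 would go with 168, 46.1, 45.9 and 65.1 *myod1* counts, where 257, 148, 0 and 0 were found. In mutants, 15.1, 103 and 9.17 would go with them, where 19, 125 and 6 were found. The mutant libraries thus lay near the *mylz2*+ ratio, and wild-type/heterozygous replicates 3 and 4 lacked *myod1* despite 20251 and 28698 counts of muscle genes. For *myog*, replicate 3 held 94 counts where 14.3 would go with its muscle genes, and mutant replicate 3 held 0 where 29.6 would. For *myf5*, the 168 counts of wild-type/heterozygous replicate 4 stood against 0.0768. The libraries with counts of 1 member were therefore not always those with counts of another, and whether muscle cells in the sort account for these counts was not tested.

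**Figure D4:**
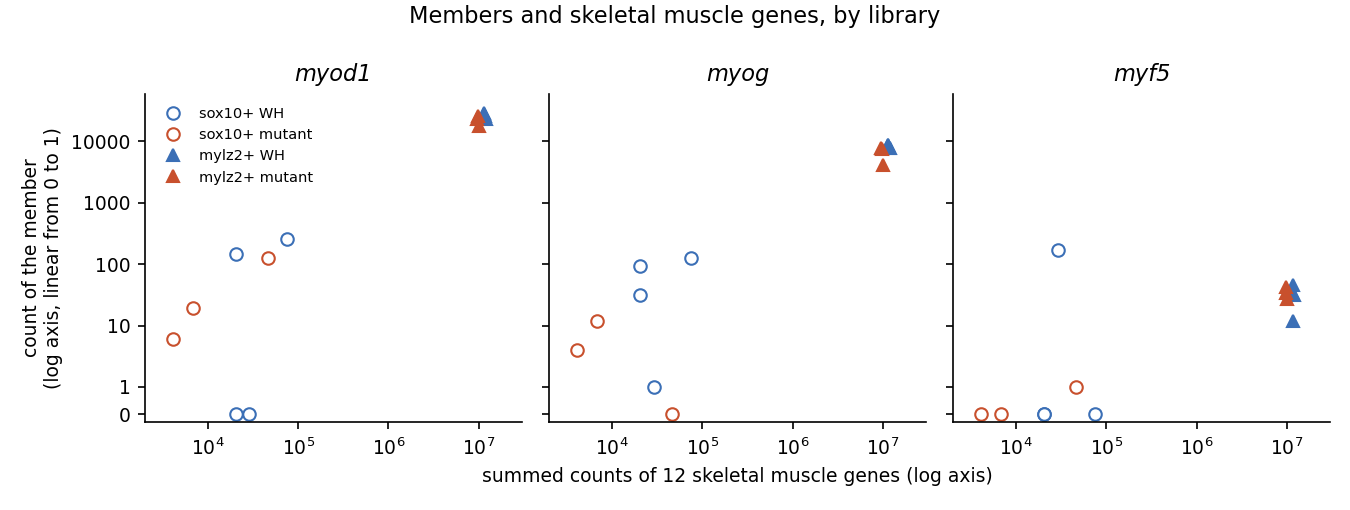
Count of each member (log axis, linear from 0 to 1) against the summed counts of 12 skeletal muscle genes (log axis) in the same library. Open circles are *sox10*+ and filled triangles *mylz2*+ libraries, blue for wild-type/heterozygous (WH) and red for mutant; 2 *sox10*+ libraries with 20251 and 28698 muscle counts had 0 *myod1* counts, and the library with 168 *myf5* counts stands apart from the other *sox10*+ libraries.

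Ordered by mean CPM on library totals, *myod1* was highest in wild-type/heterozygous *mylz2*+ cells at 357 ± 47.1 CPM (SD, n = 4), followed by mutant *mylz2*+ cells at 245 ± 33.2 (n = 3), wild-type/heterozygous *sox10*+ cells at 1.77 ± 2.25 (n = 4) and mutant *sox10*+ cells at 0.783 ± 1.01 (n = 3). *myog* had the same order, with 111 ± 11.3, 70.3 ± 21.2, 1.1 ± 1.03 and 0.0859 ± 0.105 CPM. For both genes the *mylz2*+ groups did not overlap with each other or with the *sox10*+ groups, and the *sox10*+ groups overlapped. The share of all genes with such an order was not counted. *myf5* had another order, led by wild-type/heterozygous *sox10*+ cells at 0.722 ± 1.44 CPM through 1 library, then wild-type/heterozygous *mylz2*+ cells at 0.420 ± 0.191, mutant *mylz2*+ cells at 0.380 ± 0.0510 and mutant *sox10*+ cells at 0.00519 ± 0.00898. The first 3 of these groups overlapped, and the *sox10*+ groups overlapped with each other.

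Between cell types, *myod1* and *myog* were both higher in *mylz2*+ cells, in a comparison in which 42.4% of 23232 genes were called for wild-type/heterozygous and 33.3% for mutant larvae. Of the 3 members, 2 were called in each. In wild-type/heterozygous larvae the log2 fold change of *mylz2*+ over *sox10*+ cells was 8.88 (SE 1.42, adjusted p = 0.000139 by edgeR) for *myod1* and 7.88 (SE 0.85, adjusted p = 3.21e-06) for *myog*. In mutants it was 9.24 (SE 1.67, adjusted p = 0.00059) and 10.59 (SE 1.15, adjusted p = 7.32e-06). On library totals, where all genes had a median of -1.41 in wild-type/heterozygous and -1.03 in mutant larvae against -0.212 and -0.11 after TMM scaling, the log2 fold changes of *myod1* were 7.66 and 8.29 and those of *myog* 6.66 and 9.70. On pooled counts over library totals, which carry the same shift, the *mylz2*+ level of *myod1* was 205-fold that of *sox10*+ cells in wild-type/heterozygous larvae and 320-fold in mutants, and that of *myog* 103-fold and 861-fold, the last resting on 16 counts in mutant *sox10*+ cells. The cell types also differed in reporter and in the number of cells sorted, which cannot be told apart from the cell type.

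*myf5* did not pass between cell types in either genotype. In wild-type/heterozygous larvae its log2 fold change was 0.32 (SE 1.74, adjusted p = 0.904 by edgeR), and the direction turned to -0.78 on library totals. The value rested on *sox10*+ replicate 4, since without that library it was 8.69 (adjusted p = 0.00132), a fitted value that depends on the small count added to groups at 0. In mutants the cell types did not overlap, though the share of all genes that separate in this way was not counted. There 104 counts in *mylz2*+ cells stood against 1 in *sox10*+ cells, a ratio of 74.9 with a 95% counting interval of 13.1 to 2985. The log2 fold change of 6.55 (SE 2.60) did not pass (adjusted p = 0.0682 by edgeR), but did with DESeq2's Wald test (7.16, adjusted p = 0.0104), with only the 2 groups in the fit (6.62, adjusted p = 0.0084), and without any 1 of the 4 wild-type/heterozygous *sox10*+ libraries (adjusted p between 0.00541 and 0.0478).

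The effect of the mutation in *mylz2*+ cells was compared with that in *sox10*+ cells by an interaction, for which 1.3% of 23232 genes were called and none of the 3 members, by edgeR or by DESeq2. The difference in log2 fold change was 0.35 (adjusted p = 0.98 by edgeR) for *myod1*, 2.71 (adjusted p = 0.335 by edgeR, 0.0428 unadjusted) for *myog* and 6.23 (adjusted p = 0.365) for *myf5*. The *myf5* value turned to -2.14 without wild-type/heterozygous *sox10*+ replicate 4, and that of *myod1*, close to 0, became negative without wild-type/heterozygous *sox10*+ replicate 1 (-0.83) or mutant *sox10*+ replicate 1 (-0.02) or 4 (-0.18). The positive value of *myog* stands for a larger fall in *sox10*+ cells. In the fits within each cell type, the fall of *myod1* and *myog* was called in *mylz2*+ cells and not in *sox10*+ cells. In the shared fit of 14 libraries, which the interaction used, *myog* was called in *sox10*+ cells only and *myod1* in neither. The falls were thus not shown to differ between the cell types.

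*myf6*, the other member of the bHLH family of muscle regulators and active in fibres, fell more than *myod1* or *myog* in mutant *mylz2*+ cells, from 26.2 ± 1.99 CPM (SD, n = 4) to 8.17 ± 1.83 CPM (n = 3). It had 1630 to 1824 counts in wild-type/heterozygous libraries and 616 to 1037 in mutants, a log2 fold change of -1.68 (SE 0.18, adjusted p = 0.000196 by edgeR). In *sox10*+ cells *myf6* had 0 counts in all 7 libraries. The difference between *myf6* and the members was not tested.

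Other muscle regulators mostly fell with *myod1* and *myog*. Of 34 genes on the list, 32 were tested in *mylz2*+ cells. Of these, 18 fell and 1 rose, in a comparison in which 22.3% of all genes were called. The list had a median log2 fold change of -1.05 against 0.00999 over all genes. The largest fall was that of *tbx1*, a T-box factor needed for muscle of the pharyngeal arches, at -1.95 (adjusted p = 4.35e-05 by edgeR), from 171 to 44.2 CPM. The Mef2 partners fell too, both *mef2c* genes by -1.47 (ENSDARG00000009418) and -1.19 (ENSDARG00000029764) and *mef2d* by -0.56. The 1 rise was that of *prdm1*, a repressor that specifies slow-twitch fibres in zebrafish, at 0.86. On library totals, where 5469 of 20413 genes were called, 15 fell and 2 rose, and *mef2d* no longer passed (-0.16, adjusted p = 0.475 by edgeR). In *sox10*+ cells 0 of 31 tested genes of this list passed in edgeR's test, against 3.71% over all genes. There 3 of the 31 had an unadjusted p under 0.05, against 3553 of 21476 over all genes. By DESeq2 1 of the 31 passed, against 2443 of 21594 over all genes. In the interaction 5 of 33 passed, against 1.3% over all genes. All 5 had a more negative effect in *mylz2*+ cells, among them *tbx1* at -1.98.

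Of the 4 E proteins, the binding partners of the members, 1 passed, near the 22.3% of all genes that did. *tcf3b* fell by 0.55 on the log2 scale (adjusted p = 0.0466 by edgeR) in mutant *mylz2*+ cells. The other 3 did not pass, with log2 fold changes of -0.36 for *tcf12* (adjusted p = 0.0662), -0.50 for *tcf4* and 0.09 for *tcf3a*. On library totals none of the 4 passed in edgeR's test, where 5469 of 20413 genes did, *tcf3b* having a log2 fold change of -0.14 (adjusted p = 0.691). By DESeq2 2 fell, where 6000 of 21314 genes were called. In *sox10*+ cells none of the 4 passed in edgeR's test, 1 had an unadjusted p under 0.05 and 1 fell by DESeq2. Over all genes there, 797 of 21476 passed in edgeR's test, 3553 had such an unadjusted p and 2443 of 21594 passed by DESeq2. In wild-type/heterozygous larvae, 3 of the 4 were lower in *mylz2*+ than in *sox10*+ cells, opposite to *myod1* and *myog*. In that comparison 42.4% of all genes were called.

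The Id genes encode inhibitors of bHLH pairing. In mutant *mylz2*+ cells their log2 fold changes were -0.40 for *id1*, 0.30 for *id2*, 1.00 for *id2b*, 0.18 for *id3* and -0.37 for *id4*, and none passed (adjusted p from 0.13 to 0.533 by edgeR). On library totals *id2* (0.68), *id2b* (1.43) and *id3* (0.57) passed as higher in mutants, with adjusted p of 0.00823, 0.0269 and 0.00857 by edgeR. Of the 15 inhibitors of bHLH factors tested there, 1 rose and 1 fell after TMM scaling, where 22.3% of all genes were called. On library totals 4 rose and 1 fell, where 5469 of 20413 genes were called. With upper-quartile factors 0 rose and 1 fell, where 4615 of 20413 genes were called. After TMM scaling the rise was in *snai2*, a zinc-finger repressor, at 1.01 (adjusted p = 0.0466 by edgeR). The fall was in *bhlhe40*, a bHLH repressor, at -1.03 (adjusted p = 0.000352 by edgeR). *bhlhe40* also fell in mutant *sox10*+ cells, at -0.84 (adjusted p = 0.0353 by edgeR), a call lost on library totals.

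**Figure D5:**
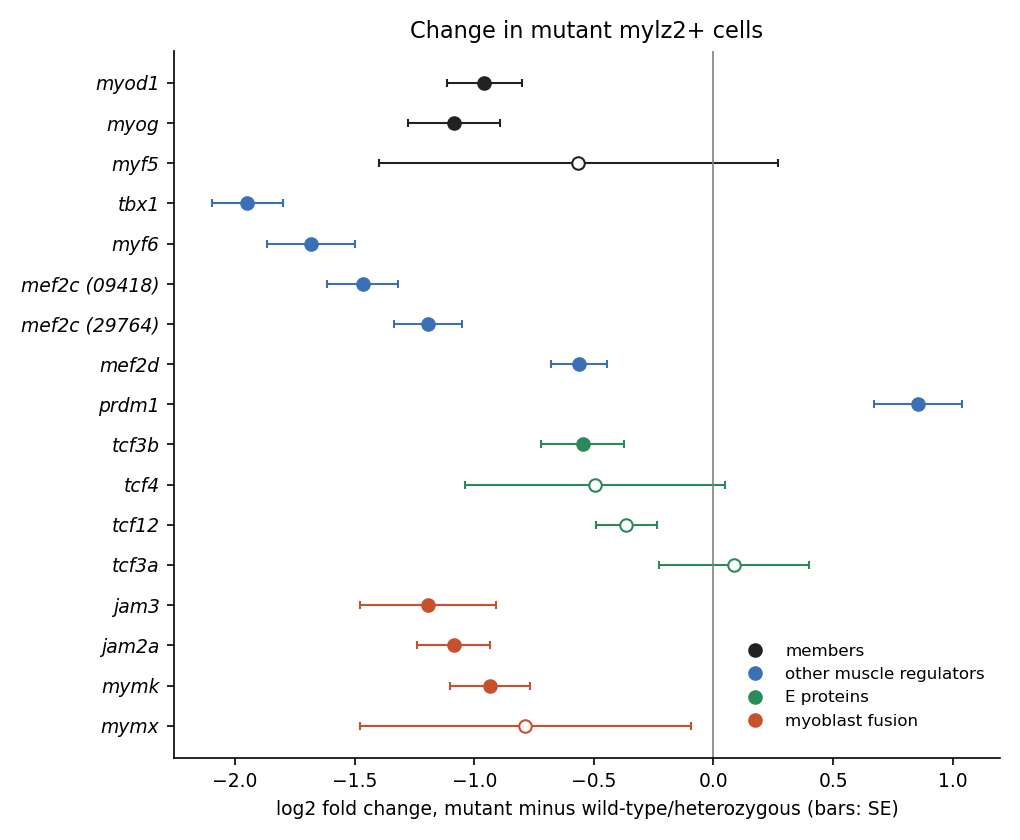
Log2 fold change of mutant over wild-type/heterozygous *mylz2*+ cells for the members, other muscle regulators, E proteins and myoblast fusion genes named in the text, with standard errors as bars. Filled points passed an adjusted p of 0.05 in edgeR's test and open points did not, and digits in brackets end the Ensembl identifier of genes that share a symbol; *myod1* and *myog* lie near -1, *myf5* at -0.57 is open, and *prdm1* is the only filled point above 0.

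Fusion and contractile genes act after the members. Of 16 genes of myoblast fusion, 8 fell and 0 rose after TMM scaling, against 22.3% called over all genes, with a median of -0.64. On library totals, however, 1 fell and 2 rose, where 5469 of 20413 genes were called, 79.5% of them higher in mutants. *mymk*, whose product Myomaker is needed for fusion, fell from 37.7 ± 3.51 to 19.7 ± 4.29 CPM (log2 fold change -0.93, adjusted p = 0.0029 by edgeR), a call lost on library totals (-0.52, adjusted p = 0.0668). The adhesion receptors *jam2a* and *jam3* (ENSDARG00000114589) fell too, by 1.09 and 1.19 on the log2 scale, and the first also passed on library totals. *mymx*, a second fusion factor, had 36 to 221 counts in wild-type/heterozygous and 32 to 252 in mutant libraries and did not pass (-0.79, adjusted p = 0.498). Among 43 contractile and excitation-coupling genes, 30 fell and 0 rose, against the same 22.3% over all genes, with a median of -0.92. On library totals 24 fell and 1 rose, against the same 5469 of 20413 genes called. The largest falls were in *myl13*, a myosin light chain gene, at -2.26, and *acta1* (ENSDARG00000036371), a skeletal actin gene, at -2.24.

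Other lists were counted in the same *mylz2*+ libraries. Of 24 genes of the cell cycle and of exit from it, 3 rose and 5 fell after TMM scaling, against 22.3% called over all genes. On library totals 5 rose and 3 fell, where 5469 of 20413 genes were called, a background that the lists below share. *cdkn1a*, an inhibitor of cyclin-dependent kinases that accompanies muscle differentiation, rose by a log2 fold change of 1.28, whereas *cdkn1b* (ENSDARG00000054271), a related inhibitor, fell at -1.03 and *mcm5*, a replication factor, at -1.45. Of 19 genes of muscle ubiquitin ligases and proteasome load, 12 rose and 4 fell, or 15 and 2 on library totals. The muscle ligases *fbxo32* (-0.95) and *trim63b* (-1.10) fell, the first not passing on library totals (-0.54, adjusted p = 0.125 by edgeR), and the proteasome genes *psmd14* (1.57) and *psme2* (2.94) rose. Of 15 tested cartilage and neural crest genes, none passed in *mylz2*+ cells in edgeR's test, by DESeq2 or at an unadjusted p under 0.05, and on library totals 1 rose. Over all genes, 6000 of 21314 passed by DESeq2 and 6753 of 20413 had such an unadjusted p. Of 11 genes marking tendon and connective tissue, 4 fell and 0 rose, among them *tnmd*, a tendon gene, at -2.17 (adjusted p = 0.0463 by edgeR) and *xirp2* (ENSDARG00000071113), which is also active in muscle, at -1.18, and 1 fell on library totals. Of 8 tested glia and neuron genes 1 fell, *neurod1* at -1.27 (adjusted p = 0.00367), and the part of such cells in the falls of *myod1* and *myog* was not tested. The share of 2 epidermal genes was 0.187 to 0.387% in wild-type/heterozygous and 0.352 to 0.473% in mutant *mylz2*+ libraries, and its part in the falls was not tested.

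The genes whose levels followed each member most closely were found by Pearson's r of log2(CPM + 0.5), given as a description without a test, since the points share libraries and their depth. Over the 14 libraries the 3 highest for *myod1* were *alpk3a* (r = 0.9973), *cacng1* (0.9972) and *klhl31* (0.997), and those for *myog* were *mettl21ep* (0.9984), *tmem182* (0.9967) and *rtn2a* (0.996). The 14 libraries span both cell types, and *myod1* and *myog* had r = 0.9835 with each other. *myf5* had lower r, 0.4478 with *myod1* and 0.4662 with *myog*. Its closest genes were si:ch211-14c7.2 (0.9405), *slc25a32* (0.9399) and ENSDARG00000115806 (0.9049). It had 168 counts in wild-type/heterozygous *sox10*+ replicate 4, 0 or 1 in the other *sox10*+ libraries and 12 to 46 in *mylz2*+ libraries. These values of r thus depend on that library and on the 0.5 added, and were not computed without it.

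Within the 7 *mylz2*+ libraries, the closest to *myod1* were *actc1* (ENSDARG00000057911, r = 0.9965), *myl4* (0.9963) and *asph* (0.9962), and r with *myog* was 0.9679. The closest to *myog* were *lmx1b* (0.9966), *txnip* (0.996) and *ppp2r3b* (0.9948). For *myf5*, with only 12 to 46 counts per library, they included *fgf3* (0.983) and ENSDARG00000109360 (0.978). Its r was 0.5432 with *myod1* and 0.5323 with *myog*. Each list was picked as the highest of 20412 genes over 7 points.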

How the data were processed

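Amplified full-length cDNA of sorted cells (SMART-Seq HT kit) was sequenced without molecular identifiers, so intervals cover counting error only. They take every count as independent and may be too narrow. The authors aligned reads to GRCz11 with STAR and deposited raw counts per gene for 14 samples, and used DESeq2 for their own tests. The counting tool, strand setting and annotation are not given in the sources used here, and the totals exceed the reads per sample stated in the methods. All columns were assigned to a sample.

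Counts were filtered by expression (edgeR's filterByExpr, minimum count 10), scaled by TMM and compared by the quasi-likelihood test of edgeR 4.0.16 (R 4.3.3) across all genes, adjusted by Benjamini-Hochberg, at a threshold of 0.05. Genotypes were compared within each cell type (7 libraries), and cell types and the interaction in a fit of all 14. Ratios within libraries used log2 of counts plus 0.5 and exact permutation tests over all 35 arrangements of 4 and 3. Alternatives were DESeq2 1.42.0, other scalings, filters and fits, a block for the replicate number, and each library left out in turn. The scripts were tested on simulated data with 200 genes changed 4-fold. There DESeq2 made 45 to 85 false calls per comparison and edgeR 3 to 10. The simulated spread followed edgeR's own trend with abundance exactly, without the further differences between genes that real counts have. The simulation therefore cannot decide which test is more reliable on the real counts. Calls by 1 of the tests alone are less certain. Python 3.11.15, pandas 2.3.3 and matplotlib 3.10.9 were used.

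The members and gene lists were chosen with earlier results of these data known. Besides the members, a fixed set (*myf6*, E proteins, Id genes, *mef2c*, *mef2d*, *mymk*, *mymx*, *psmb1*) was named, with up to 2 rises and 2 falls per list past the threshold whose mean count reached 100 in either genotype, and the 3 genes with the highest r to each member; other genes were not named, and a few genes that the rule names are not reported here. Symbols came from a reference table that matched 29201 of 32520 identifiers. A listed symbol that did not match was sought without its copy letter, taking all copies, a choice made after the files were seen. Genes with close copies may share reads and are uncertain. No transcript lengths were used, so levels were compared between libraries and not between genes. Sequences of the genes were not used here.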

Additional observations from a re-analysis of the deposited data

Results flagged for a closer look

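A single library standing apart in a group of 4 was tested 18 times, by the gap to its nearest neighbour over the group's range. Chance gives about 1 in 20 for independent, normally distributed values. That rate need not hold here, since some counts were 0 and the same counts entered several tests. Of the 18 tests, 3 passed the 95% critical value. All 3 came from wild-type/heterozygous *sox10*+ replicate 4. For *myf5*, with 168 counts in that library and 0 in the other 3, the ratio was 1 on TMM-scaled CPM and 1 on library totals, a value that any count in that library would give, so both are the same single observation. For the log2 ratio of *myog* to *myf5* it was 0.866, with -6.81 in that library and 5.98 to 7.96 in the others. The same library held 1 *myog* and 0 *myod1* counts. Its part in the *myf5* results is given by the values without it.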

How the results depend on the processing

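For *myod1* and *myog*, the falls in *mylz2*+ cells and the differences between cell types kept their direction under every alternative run, and their calls under all but the shared fit of 14 libraries (-0.97 and -1.10, adjusted p = 0.671 and 0.365 by edgeR). Leaving out 1 library gave -1.06 to -0.85 for *myod1* and -1.32 to -0.95 for *myog* in *mylz2*+ cells, with adjusted p up to 0.0134. For *myf5*, mutant cell types gave 7.16 with DESeq2, 6.62 with 2 groups and 6.12 to 8.07 without 1 library, and wild-type/heterozygous cell types -0.78 on library totals and -0.095 to 8.69 (the highest without *sox10*+ replicate 4) without 1 library. The shared fit took *myog* in *sox10*+ cells to -3.81 (adjusted p = 0.0431). Interactions without 1 library ran from -0.83 to 2.30 for *myod1* and from -2.14 to 7.75 for *myf5*. In *sox10*+ cells, log2 ratio differences ran from -5.18 to 0.62 (without wild-type/heterozygous replicate 4) for *myf5* to *myod1* and from -5.09 to 0.23 (without mutant replicate 3) for *myog* to *myf5*.

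Over all genes, the 797 calls in *sox10*+ cells became 2443 with DESeq2, 1211 with the shared fit and 293 (without mutant replicate 1) to 1018 (without wild-type/heterozygous replicate 4) without 1 library, with 467, 359 and 350 without wild-type/heterozygous replicate 2 and mutant replicates 3 and 4. The 4553 calls in *mylz2*+ cells became 2683 with the shared fit. The 301 interaction calls became 1327 with DESeq2 and 102 (without mutant *mylz2*+ replicate 3) to 443 without 1 library, with 154 to 170 without any 1 of the other 5 mutant libraries. Shares of called genes with a positive value moved from 56.7 to 71.9% (*sox10*+), 48.4 to 15.5% and 50.8 to 18.2% (cell types, wild-type/heterozygous and mutant) and 35.2 to 68.6% (interaction) on library totals.

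Correlations of deviations between same-numbered libraries were -0.0526 to 0.0959, which cannot decide whether the replicate numbers pair the samples. The paper states that its experiments used siblings matched by clutch. With a replicate block, the counts of called genes were 174 (*sox10*+), 3742 (*mylz2*+) and 46 (interaction), *myod1* was 3.92 in *sox10*+ cells and -1.39 for the interaction (neither called), *myf5* between mutant cell types was 6.87 (adjusted p = 0.0446 by edgeR), and *myod1* and *myog* in *mylz2*+ cells were -0.84 and -0.99 (adjusted p = 0.0117 and 0.0142). The cause of these changes was not tested. Low counts limit *myf5* in both cell types and all members in *sox10*+ cells. Counts per gene list under other scalings and with DESeq2, and levels per muscle gene count, were added after seeing the data.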
